A study of Mus musculus with 3 samples.

Results

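The sodium-potassium pump of cultured mouse astrocytes was examined through 7 of its subunit genes, found in the deposited table by their symbols among 19471 genes. They were the beta subunit genes Atp1b1, Atp1b2 and Atp1b3 and the FXYD genes Fxyd1, Fxyd5, Fxyd6 and Fxyd7. All 7 had a row, and 6 had a mean normalized read count of 10 or more, the level used here as detected. The exception was Fxyd7. The study concerns the histone variant H2BE in the brain, and the libraries described here come from wild-type pups only. Cortical astrocytes were isolated at postnatal day 1, cultured for 7 days and sequenced as poly(A) RNA, with 1 library from each of 3 pups. The sample descriptions use a day 0 name, but the titles and the design text give day 1. The descriptions also carry the label Ctrl for all 3 libraries. Strain and sex are not given in the labels used here, and animal, culture and library cannot be told apart.

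The pump moves sodium out of the cell and potassium in at the cost of ATP. Its alpha subunit carries out transport, its beta subunit is a glycoprotein needed for folding and delivery to the membrane, and FXYD proteins are small single-span membrane proteins that adjust its kinetics. In astrocytes the pump clears potassium released by active neurons and maintains the sodium gradient that drives glutamate uptake.

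The 3 libraries held 14380993, 25128038 and 9858626 reads in replicates 1, 2 and 3, so low genes were measured most precisely in replicate 2. Values are the deposited normalized read counts unless a sentence says per kilobase, which means divided by the union of a gene's annotated exons. All 10 astrocyte markers checked were detected, from Gfap at 52283 ± 6679 to S100b at 68.7 ± 19.4 (SD, n = 3). Microglial and ependymal markers were detected too, 8 of 8 in each list. Neuronal markers were detected for 6 of 10, led by Map2 at 2564 ± 55.0, and the vesicular glutamate transporter gene Slc17a7 was at 0 in replicates 1 and 3.

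Atp1b1 and Atp1b2 were the most abundant of the 7 genes and were nearly the same in every library. Atp1b1, the widely expressed beta subunit, had normalized counts of 5159, 5133 and 5209 in replicates 1, 2 and 3, a mean of 5167 ± 38.4. Atp1b2, the beta subunit also known as the adhesion molecule on glia, had 5438, 5512 and 5358, a mean of 5436 ± 76.9. Atp1b2 lay above Atp1b1 in reads in 3 of 3 libraries. They ranked 256 for Atp1b2 and 281 for Atp1b1 among all genes. Atp1b3, another beta subunit found in many tissues, had 1458, 1715 and 1532, a mean of 1568 ± 132, with replicate 2 the highest. No value of Atp1b3 reached the range of the other beta genes.

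**Figure D1:**
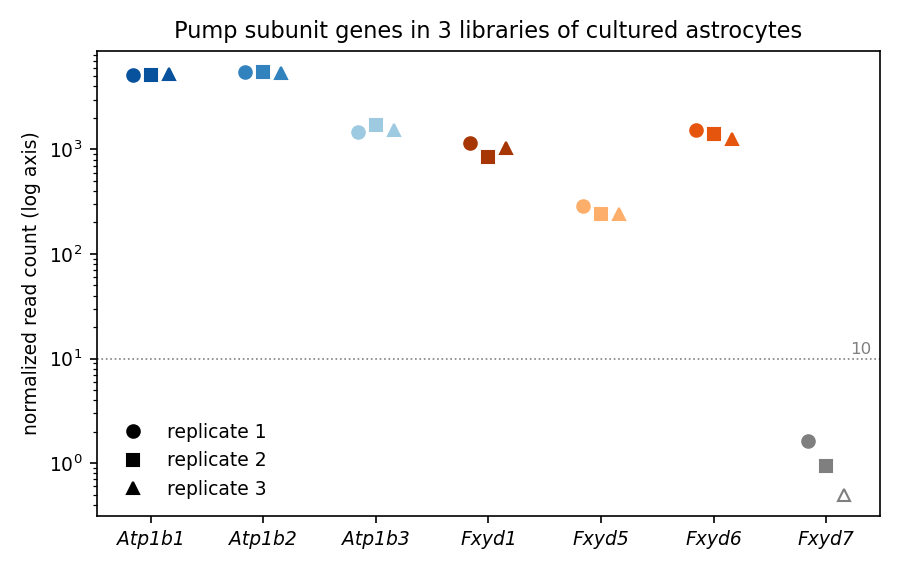
Normalized read counts (log axis) of the 7 subunit genes, with 1 symbol for each of the 3 libraries and a dotted line at 10. The beta genes lie between 1458 and 5512 and Fxyd7 lies at or below 1.63, with the open triangle, drawn at 0.5, standing for a value of 0.

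The coding sequences of the beta genes are of like size, 912 nucleotides in Atp1b1, 870 in Atp1b2 and 834 in Atp1b3. In pairwise alignment Atp1b1 matched Atp1b2 at 63.8% of aligned bases and Atp1b3 at 60.8%, and Atp1b2 matched Atp1b3 at 60.1%. No stretch of 50 bases in transcripts of Atp1b1 or Atp1b2 occurs in a transcript of another annotated gene. For Atp1b3 9.71% of such stretches do, mainly in the processed pseudogene Gm1848, which had a mean of 1.03, so a small part of its reads is uncertain. The 3′ end of Atp1b1 overlaps Nme7 on the opposite strand over 617 bases. Nme7, a nucleoside diphosphate kinase family gene, averaged 417. The strand setting of the counting is unknown, so reads in the overlap are uncertain.

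The FXYD genes ranged from more than 1000 normalized reads to almost none. Fxyd6, or phosphohippolin, a brain member of the family, had 1528, 1418 and 1252 normalized reads in replicates 1, 2 and 3, a mean of 1399 ± 139. Fxyd1, or phospholemman, a kinase target known from heart and brain, had 1147, 837 and 1027, a mean of 1004 ± 156. Replicate 2 was the lowest for Fxyd1 and replicate 3 the lowest for Fxyd6, and their ranges in reads, not divided by length, did not overlap. Per kilobase of union exon Fxyd1 was instead the higher, at a mean of 459 against 341 for Fxyd6. Fxyd5, or dysadherin, which is also tied to cell adhesion, had 289, 239 and 240.4, a mean of 256 ± 28.3.

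Fxyd7, a brain member of the family described mainly in neurons, was at the limit of counting. It had 2, 2 and 0 reads in replicates 1, 2 and 3, that is, normalized counts of 1.63, 0.943 and 0. The exact 95% Poisson intervals were 0.197 to 5.88, 0.114 to 3.41 and 0 to 4.41 normalized reads, which cover counting error only. The floor that a count of 0 allows, 3 reads, is a normalized count of 3.59 in replicate 3. Over the libraries Fxyd5 had 1063 reads against 4 for Fxyd7, which per kilobase of union exon is a ratio of 43.9 (exact 95% interval 17.1 to 162). With the median protein-coding transcript, a length chosen after the data were seen, the ratio was 217 (84.6 to 799).

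The FXYD genes are named for a motif of phenylalanine, any residue, tyrosine and aspartate just before the membrane span. The stretches below were found by a search for that motif and cut around it, so their likeness at the motif was set by the search. They are coding sequence from GENCODE release M21 (mm10), 60 bases each and 5′ to 3′, with the 4 motif codons in capitals.
Fxyd1: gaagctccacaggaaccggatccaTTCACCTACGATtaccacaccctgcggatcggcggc
Fxyd5: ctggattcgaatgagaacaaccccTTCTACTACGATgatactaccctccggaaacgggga
Fxyd6: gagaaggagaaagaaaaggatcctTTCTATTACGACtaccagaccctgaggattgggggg
Fxyd7: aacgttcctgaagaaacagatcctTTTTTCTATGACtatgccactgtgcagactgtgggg
The motif begins at codon 29 in Fxyd1, 136 in Fxyd5, 29 in Fxyd6 and 18 in Fxyd7. The codon before it is CCA in Fxyd1, CCC in Fxyd5, and CCT in Fxyd6 and Fxyd7, each coding for proline. The second codon of the motif, its variable place, is ACC in Fxyd1, TAC in Fxyd5, TAT in Fxyd6 and TTC in Fxyd7. In all 4 genes an intron splits the motif after its base 10 of 12, inside the aspartate codon. This intron is 418 bases long in Fxyd1, 102 in Fxyd5, 104 in Fxyd6 and 2345 in Fxyd7. Fxyd5 has the longest coding sequence, 555 nucleotides, against 276 in Fxyd1, 282 in Fxyd6 and 240 in Fxyd7. Pairwise identity of the coding sequences was between 59.9% for Fxyd5 with Fxyd6 and 64.2% for Fxyd1 with Fxyd6. None of the beta coding sequences holds these 4 codons in frame.

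Fxyd1, Fxyd5 and Fxyd7 are neighbours on chromosome 7 and all lie on the minus strand (mm10). Fxyd5 spans 31032722 to 31042481, Fxyd7 spans 31042513 to 31051467 and Fxyd1 spans 31051678 to 31057199. Fxyd7 is thus 31 bases from Fxyd5 and 210 bases from Fxyd1. The gene with at most 2 reads in a library lies between neighbours with 201 to 507 reads (Fxyd5) and 859 to 1775 reads (Fxyd1) in each library. On the far side of Fxyd1, Lgi4, which encodes a secreted protein of glia, averaged 22.6, and on the far side of Fxyd5, Fam187b averaged 1.58. Fxyd6 lies on the plus strand of chromosome 9 from 45370185 to 45396159, 3509 bases before Fxyd2, which averaged 2.68. Atp1b1 (chromosome 1, 164437109 to 164458355), Atp1b2 (chromosome 11, 69599736 to 69605942) and Atp1b3 (chromosome 9, 96332655 to 96364442) are all on the minus strand. Among their neighbours Dpt, 338288 bases from Atp1b1, averaged 1.97, while Tfdp2 and Rnf7, on either side of Atp1b3, averaged 1169.8 and 948. The Ensembl identifiers in the table are ENSMUSG00000026576 for Atp1b1, ENSMUSG00000041329 for Atp1b2, ENSMUSG00000032412 for Atp1b3, ENSMUSG00000036570 for Fxyd1, ENSMUSG00000009687 for Fxyd5, ENSMUSG00000066705 for Fxyd6 and ENSMUSG00000036578 for Fxyd7.

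RefSeq promoter windows (GRCm38.p6, 250 bases before to 50 after the start) were matched for 5 of the 7 genes, not for Atp1b2 and Fxyd7. Those of Atp1b1 and Fxyd1 are shown because among the detected members they had the smallest and the largest SD of log2 values over the libraries. Other measures of spread, given below, order the members differently. Both are on the minus strand, with each CG in capitals.
Atp1b1, chr1:164458306-164458605: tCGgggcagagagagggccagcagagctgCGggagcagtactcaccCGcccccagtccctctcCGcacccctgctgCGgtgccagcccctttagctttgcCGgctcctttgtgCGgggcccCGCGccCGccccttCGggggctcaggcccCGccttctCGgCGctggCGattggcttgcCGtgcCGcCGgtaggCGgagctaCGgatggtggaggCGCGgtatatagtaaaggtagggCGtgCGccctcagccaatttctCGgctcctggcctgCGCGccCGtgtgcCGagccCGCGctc
Fxyd1, chr7:31054804-31055103: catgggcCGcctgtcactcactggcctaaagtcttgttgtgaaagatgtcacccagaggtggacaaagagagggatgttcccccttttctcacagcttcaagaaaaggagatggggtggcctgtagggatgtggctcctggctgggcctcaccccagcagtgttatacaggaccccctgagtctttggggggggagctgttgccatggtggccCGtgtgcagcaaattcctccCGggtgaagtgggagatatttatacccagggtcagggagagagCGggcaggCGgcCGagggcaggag
The Atp1b1 window holds 31 CG, and 89.4% of the 32851 mouse windows hold fewer. The windows of Atp1b3 hold 34 and 39 for its listed starts. Among the FXYD genes the windows of Fxyd1 and Fxyd5 hold 6 each and that of Fxyd6 holds 12, against a median of 7 over all windows. The letters CG read the same on both strands, and 94.6% of all windows hold at least 1.

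Levels of different genes were compared per kilobase, with a limma model of the within-library log2 difference fitted over 13901 genes for each subtracted member. By union exon length the order was Atp1b1 at 1677 ± 12.5, Atp1b2 at 1331 ± 18.8, Atp1b3 at 657 ± 55.4, Fxyd1 at 459 ± 71.4, Fxyd6 at 341 ± 33.9 and Fxyd5 at 61.1 ± 6.75 (SD, n = 3). Fxyd7 was last at 1.24 ± 1.18 and was not tested. All 15 pairs of the 6 detected members differed at an adjusted p under 0.05. Calls in either direction were the rule, made for 99.1% of all genes against Atp1b2, 97.4% against Atp1b3, 94.2% against Fxyd1, 94.8% against Fxyd6 and 87.9% against Fxyd5, so the count of pairs is near the background. Called higher were 2.00% of genes against Atp1b2, 4.79% against Atp1b3, 6.84% against Fxyd1, 10.7% against Fxyd6 and 48.6% against Fxyd5.

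The smallest gaps between neighbours in this order were those that the choices of processing touched. Atp1b1 exceeded Atp1b2 by 0.33 ± 0.07 (SE) on the log2 per-kilobase scale, or 1.26-fold, in 3 of 3 libraries (adjusted p = 0.00174, limma). Atp1b2 exceeded Atp1b3 by 1.02 ± 0.13, or 2.03-fold. Atp1b3 exceeded Fxyd1 by 0.52 ± 0.19, or 1.44-fold (adjusted p = 0.00543, limma). The difference was 0.22, 0.91 and 0.45 in replicates 1, 2 and 3, and the call ended without replicate 3 (0.56, adjusted p = 0.142, limma) and with separate variances (adjusted p = 0.130, limma). Fxyd1 exceeded Fxyd6 by 0.42 ± 0.11, or 1.34-fold (adjusted p = 0.00686, limma), a call that also ended with separate variances (adjusted p = 0.102, limma). Fxyd6 exceeded Fxyd5 by 2.48 ± 0.13, or 5.56-fold.

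The position of Fxyd1 depended on the length used. Its 17 annotated transcripts cover 2186 nucleotides of exon together, but its longest protein-coding transcript has 620. Divided by the longest protein-coding transcript of each gene, Fxyd1 stood at 1619 ± 252 per kilobase, beside Atp1b1 at 2003 ± 14.9 and Atp1b2 at 1913 ± 27.0. On that scale Fxyd1 was above Atp1b3, which stood at 787 ± 66.3 (Atp1b3 minus Fxyd1 -1.03, adjusted p = 3.54e-08, limma). Atp1b1 minus Fxyd1 was then 0.32 (adjusted p = 0.0762, limma) and Atp1b2 minus Fxyd1 0.25 (adjusted p = 0.162, limma). Atp1b1 minus Atp1b2 was 0.07 (adjusted p = 0.393, limma), and Fxyd6 stood at 782 ± 77.7, next to Atp1b3 (Atp1b3 minus Fxyd6 0.01, adjusted p = 0.932, limma). Fxyd5 stayed sixth under each of the 4 lengths tried and rose most with the median protein-coding transcript, to 319 ± 35.2. Which transcripts of these genes the cells make was not measured by counts per gene.

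**Figure D2:**
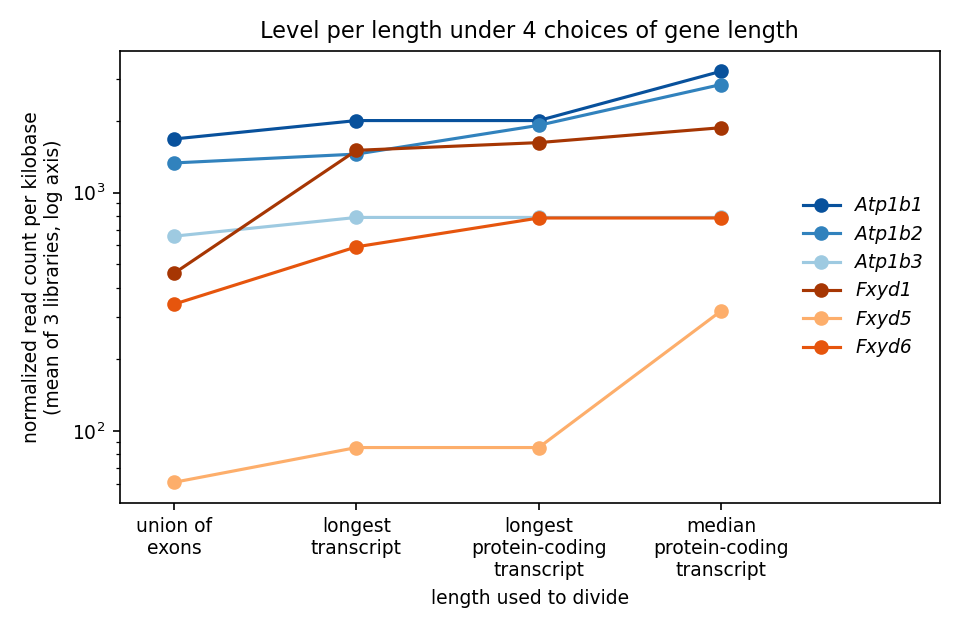
Mean normalized read count per kilobase over 3 libraries (log axis) of the 6 detected subunit genes, divided by 4 measures of gene length. Fxyd1 moves from 459 per kilobase by union exons to between 1503 and 1869 by transcript lengths, while Atp1b3 and Fxyd6 lie together at 787 and 782 with the longest protein-coding transcript.

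The per-kilobase shares of Fxyd1 and Fxyd6 moved more between the 3 libraries than those of the beta genes. Of the summed per-kilobase level of the beta genes, Atp1b1 gave 45.8% ± 0.998, Atp1b2 36.3% ± 0.434 and Atp1b3 17.9% ± 1.20 (SD, n = 3). Of reads, Atp1b2 gave 45.1% (44.3% to 45.9%), 44.6% (44.0% to 45.2%) and 44.3% (43.3% to 45.3%) in the 3 libraries, with overlapping 95% intervals by Wilson's method. Of the FXYD level per kilobase, Fxyd1 gave 54.2%, 48.7% and 56.5% in replicates 1, 2 and 3. In the mean Fxyd6 gave 39.7% ± 3.77, Fxyd5 7.09% ± 0.183 and Fxyd7 0.139% ± 0.125. Of FXYD reads, Fxyd1 gave 38.7% (37.1% to 40.3%), 33.6% (32.3% to 34.8%) and 40.8% (38.7% to 42.9%) in replicates 1, 2 and 3. For Fxyd1 the interval of replicate 2 lies below both others, while the intervals of Fxyd5 overlap. These intervals cover counting error only, not the difference between pups. Without division by length Fxyd6 led the FXYD genes with 52.7% and Fxyd1 had 37.7%.

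**Figure D3:**
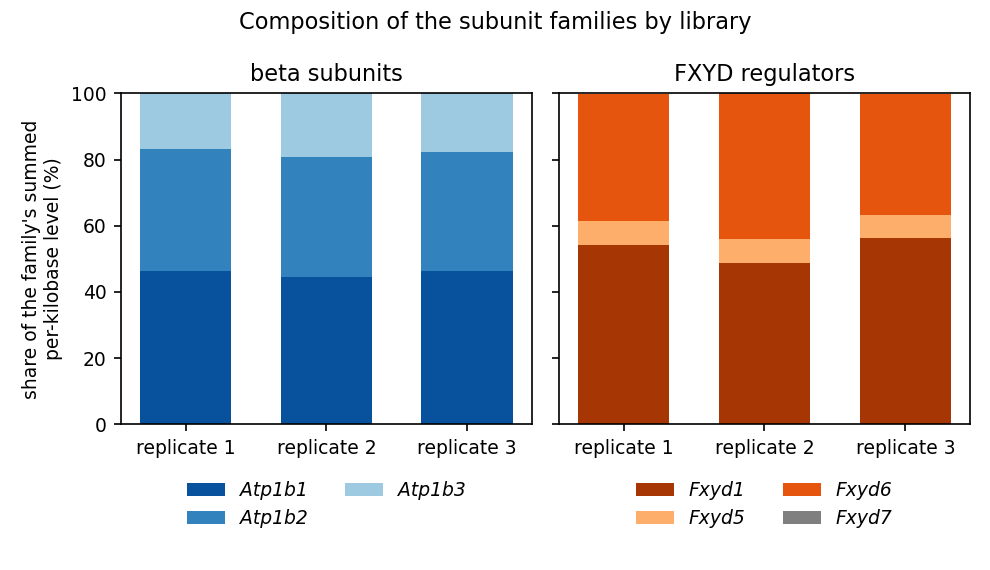
Share (%) of each gene in the summed per-kilobase level of its family, as stacked bars for each of the 3 libraries. Atp1b1 and Atp1b2 make up most of the beta level in each library, and the share of Fxyd1 lies between 48.7% in replicate 2 and 56.5% in replicate 3.

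The summed per-kilobase level of the 4 FXYD genes was 0.236 ± 0.0292 of that of the 3 beta genes (SD, n = 3), at 0.268, 0.211 and 0.228 in replicates 1, 2 and 3. The ratio was highest in replicate 1, and it also rests on length: it was 0.530 with the longest and 0.435 with the median protein-coding transcript.

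**Figure D4:**
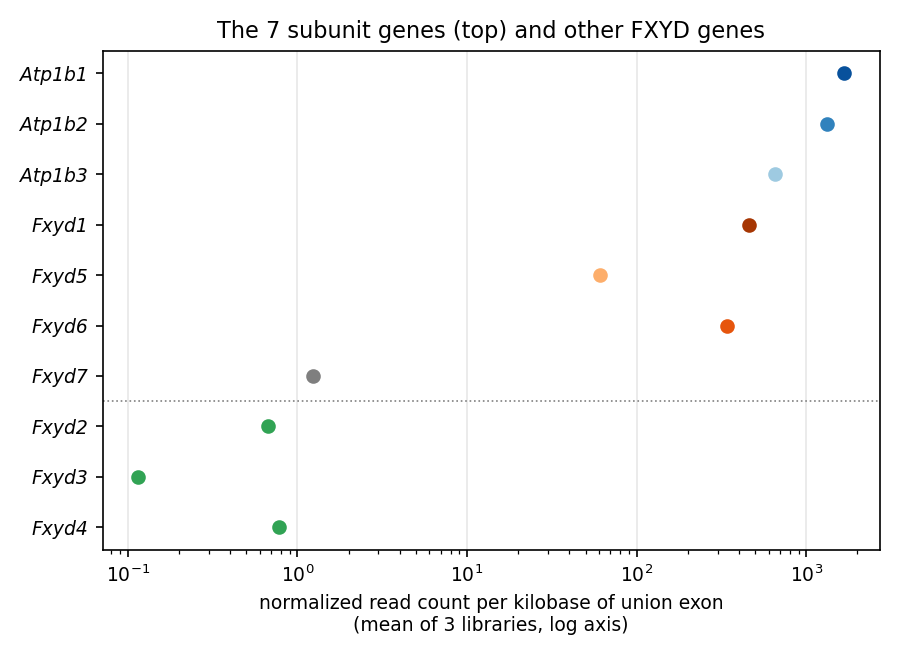
Mean normalized read count per kilobase of union exon over 3 libraries (log axis), with the 7 subunit genes above the dotted line and other FXYD genes below it. The 3 beta genes lie at 657 or more, and Fxyd2, Fxyd3 and Fxyd4 lie below Fxyd7, which stands at 1.24. Fxyd7 and these other FXYD genes have few reads, and their order rests on length. In normalized reads Fxyd2 (2.68) and Fxyd4 (1.53) lie above Fxyd7 (0.857).

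Among other FXYD genes Fxyd2, the kidney gamma subunit, averaged 2.68 ± 0.989, Fxyd4 1.53 ± 0.801 and Fxyd3 0.556 ± 0.602. Atp4a, the alpha subunit of the gastric proton pump, averaged 15.03 ± 3.95. Atp1b4, Atp4b and Atp12a had no row under these symbols. Among all genes 1.38% were called higher per kilobase than Atp1b1 and 97.9% lower (limma, adjusted p under 0.05). Among 16 genes of pump partners, 15 were lower per kilobase than Atp1b1 and none was higher. The ubiquitin ligase gene Nedd4 did not pass the test, at 1595 ± 91.4 per kilobase and 17497 ± 1003 normalized reads. Sptan1, a spectrin of the membrane skeleton, at 15169 ± 315 and the kinase gene Wnk1 at 8007 ± 576 followed in reads. Among 15 carriers that use or accompany the sodium gradient, 14 were lower per kilobase than Atp1b1 and 1 was higher. The higher was the glutamate transporter gene Slc1a3, at 2577 ± 223 per kilobase and 22003 ± 1902 normalized reads. The glutamine transporter genes Slc38a1 at 8167 ± 332 and Slc38a3 at 4359 ± 501 followed in reads. Of 6 calcium pump genes detected, all were lower per kilobase than Atp1b1. The highest in reads were the SERCA gene Atp2a2 at 6290 ± 399, Atp2b4 at 5425 ± 616 and Atp2b1 at 1013 ± 86.9. Per kilobase they stood at 1034, 443 and 66.5. Across all genes 97.9% were lower per kilobase than Atp1b1, so the numbers of lower genes in these lists are near the background.

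The spread of the members between libraries was set against read sampling and against other genes. A chi-square test set the reads of a gene in the 3 libraries against the library totals, with Benjamini-Hochberg adjustment over 13941 genes, and called 55.4% of them. Of the 6 detected members 4 were called, near that background. The test asks only whether libraries of different pups differ beyond read sampling, and its value grows with the number of reads. Fxyd1 had a chi-square of 88.0 on 2 degrees of freedom (adjusted p = 1.53e-18), Atp1b3 30.2 (adjusted p = 1.45e-06), Fxyd6 29.3 (adjusted p = 2.28e-06) and Fxyd5 9.38 (adjusted p = 0.0191). Atp1b1 had a chi-square of 1.96 (adjusted p = 0.450) and Atp1b2 of 1.86 (adjusted p = 0.469), so a spread beyond read sampling was not detectable for them. Without replicate 2 that of Fxyd1 was 7.44 (adjusted p = 0.0191), below Fxyd6 at 29.0 (adjusted p = 7.16e-07). Atp1b2 was called when totals were scaled by TMM (7.86, adjusted p = 0.0370). The calls of Atp1b3 (1.28, adjusted p = 0.387) and Fxyd5 (4.71, adjusted p = 0.0696) ended without replicate 2, and that of Fxyd5 ended without replicate 1 (0.0157, adjusted p = 0.942). Leaving out replicate 1 left 3 members called, leaving out replicate 2 left 2, and leaving out replicate 3 left 4.

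The SD of the log2 values was 0.0107 for Atp1b1, lower than in all but 0.699% of 715 genes whose mean was 0.5 to 2 times its own. It was 0.0204 for Atp1b2, lower than in all but 3.31% of 664 such genes. For Fxyd1 it was 0.230, at the 86.8 percentile of 4299 genes. Atp1b3 at 0.120, Fxyd5 at 0.154 and Fxyd6 at 0.145 lay at the 48.1, 49.7 and 61.5 percentiles. The smallness of the spread of Atp1b1 and Atp1b2 rests on 3 values each, and the edgeR biological coefficient of variation, which borrows from other genes, was 9.62% for Atp1b1 and 9.61% for Atp1b2. It was 10.8% for Atp1b3, 11.2% for Fxyd6, 12.8% for Fxyd1 and 12.9% for Fxyd5, against a common value of 13.1% over the detected genes.

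Marker lists were set beside the FXYD genes. The 8 ependymal markers, all detected and none at 0, summed to 14460, 10604 and 12301 normalized reads in replicates 1, 2 and 3. Fxyd1 shared that order of libraries, as did Fxyd5, whose values in replicates 2 and 3 were close. Foxj1 made up most of the sum, with 11671, 8764 and 9465. Cfap44, Tmem212 and Mia were instead highest in replicate 3, and the other ependymal markers had the order of the sum. The 8 microglial markers, all detected and none at 0, summed to 24252, 19061 and 16880, an order that Fxyd6 shared. The astrocyte list, at 148094, 146613 and 131491, and the fibroblast and meningeal list, at 6273, 6124 and 5912, had that order too. These are orders of sums, which single genes need not follow. Aif1 and Ctss aside, each microglial marker had this order itself. Of the astrocyte genes only Aldh1l1 and Mlc1 had it, and no fibroblast and meningeal gene did. The highest and lowest members were Foxj1 at 9966 ± 1517 and Tmem212 at 13.6 ± 10.1 for ependymal cells, and Csf1r at 5517 ± 1362 and P2ry12 at 308 ± 24.1 for microglia. With 3 libraries a shared order is a weak description, and the part of these cells in the FXYD levels was not tested. In bulk RNA fewer cells of a type and less RNA per cell cannot be told apart. Choroid plexus markers, which include Folr1 at 382 ± 45.5 and Prlr at 0.586 ± 0.511, summed to 768, 1159 and 729. No FXYD gene shared that order, but the sum rests on Ttr, the transthyretin gene, at 31.7, 557 and 13.2. Folr1, the highest by mean, had 425, 334 and 386 in replicates 1, 2 and 3, the order of Fxyd1 and Fxyd5. Among the other choroid plexus markers only Kl, near the floor, had the order of Folr1. The part of choroid plexus cells in the FXYD levels was not tested either.

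**Figure D5:**
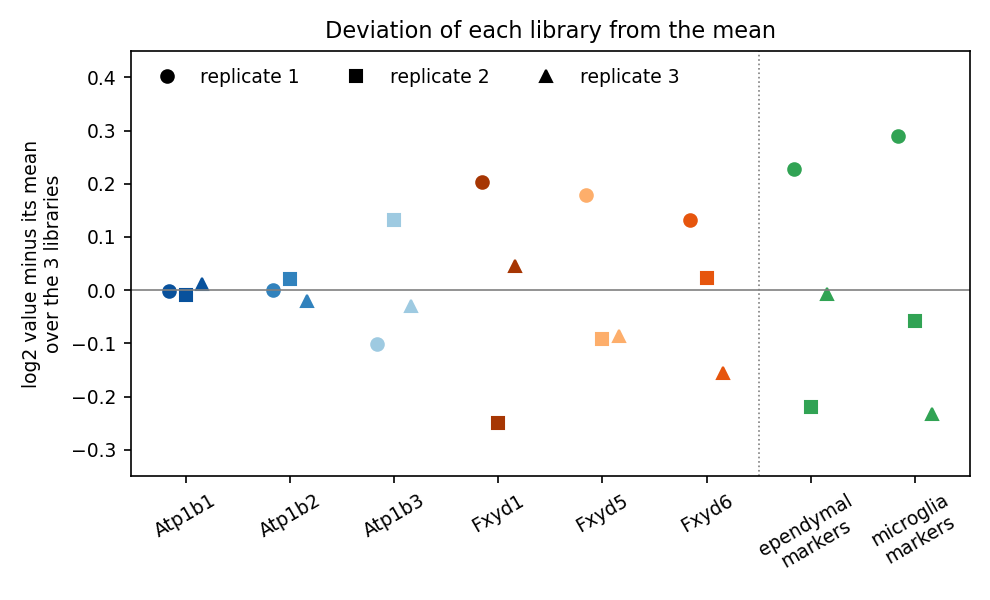
Log2 normalized value of each library minus its mean over the 3 libraries, for the 6 detected subunit genes and for the summed ependymal and microglial marker lists. Atp1b1 and Atp1b2 lie between -0.02 and 0.02, and Fxyd1 lies at 0.20 in replicate 1, -0.25 in replicate 2 and 0.05 in replicate 3, beside 0.23, -0.22 and -0.01 for the ependymal list. Most of the ependymal sum is Foxj1.

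The remaining marker lists were low or mixed. Of the oligodendrocyte lineage 5 of 7 genes in the table were detected, from Pdgfra at 390.1 ± 91.5 to Mobp at 1.41 ± 0.215. Endothelial genes were detected for 4 of 6, from Slco1a4 at 1692 ± 153 to Tek at 1.68 ± 0.664, and mural genes for 4 of 7, from Pdgfrb at 900.2 ± 99.2 to Abcc9 at 0.586 ± 0.511. Fibroblast and meningeal genes were detected for 6 of 8, from Islr at 2691 ± 422 to Slc6a13 at 0.954 ± 1.27.

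The gene whose pattern over the 3 libraries was nearest to each member was found by the root mean square difference of centred log2 values among 10565 other genes with a mean of 100 or more. It was Bod1 for Atp1b1 (0.00124), Kif13a for Atp1b2 (0.00140), Pigm for Atp1b3 (0.000723), Tcf3 for Fxyd6 (0.000460), Slc37a4 for Fxyd5 (0.00297) and Ascc1 for Fxyd1 (0.0101). With 3 libraries near matches are common. Within 0.05 of Atp1b1 lay 13.3% of those genes, against 0.842% for Fxyd1, whose pattern had the fewest. A fixed distance takes in more genes for a flat pattern, so these shares partly restate the SD of the log2 values. That SD was smallest for Atp1b1 and largest for Fxyd1.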

How the data were processed

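The deposited signal is a normalized read count for each gene in 3 libraries with their mean, which was not used. DESeq2 and the build mm10 are named in the submitters' processing notes. Per the labels' protocols libraries were stranded poly(A) mRNA libraries. Aligner, counting tool, strand setting and annotation: not given in the sources used here. Each library's values were whole multiples of 1 read (0.813, 0.472 and 1.20), so reads were recovered for 100% of values within 0.05 reads. The chi-square test on them called 7726 genes.

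Lengths and positions came from GENCODE M21 (mm10), which held 19372 of 19471 genes. Differences are of log2(value + 1), with a pseudocount of 1, which understates folds of low genes. A mean of at least 10 was needed for a test, and the chi-square test also needed 30 reads. Each limma fit was intercept-only with a trended prior, with Benjamini-Hochberg adjustment over all genes of the fit. Its differences share the 3 values of the subtracted gene, and p-values rest on a spread pooled over genes. All tests describe these 3 cultures. The members and lists were chosen with earlier results of these data known. Named genes are the members, listed pump family genes, the 3 highest by mean of each other pathway list, the highest and lowest of each marker list, the nearest-pattern gene and the genomic neighbours, and some of these are not reported here. Also named are Gm1848 and Ttr, chosen after their values were seen. Procedures were tested on simulated data. Coding sequences were the longest complete one of each gene, aligned with Biopython 1.88. Python 3.11.15, numpy 2.4.6, pandas 2.3.3, SciPy 1.17.1, matplotlib 3.10.9, R 4.3.3, limma 3.58.1 and edgeR 4.0.16 were used.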

Additional observations from a re-analysis of the deposited data

How the results depend on the processing

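No paired analysis was possible because the series has a single group. All 15 pairs kept direction and call with a pseudocount of 0.5, without a filter on low values, with TMM scaling and without replicate 1 or replicate 2. Pairs called in the same direction numbered 14 without replicate 3, 13 with separate variances, 13 by longest annotated transcript, 12 with no division by length, and, by lengths added after seeing the data, 10 by longest and 13 by median protein-coding transcript. Reversed were Atp1b1 minus Atp1b2 (-0.073) and Fxyd1 minus Fxyd6 (-0.49) with no division by length, Atp1b2 minus Fxyd1 (-0.041) by longest annotated transcript, and Atp1b3 minus Fxyd1 by longest annotated (-0.93), longest protein-coding (-1.03) and median protein-coding transcript (-1.24).

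Shares were given by longest annotated transcript, no division, longest and median protein-coding transcript, in that order. They were 47.3%, 42.5%, 42.6% and 47.1% for Atp1b1, 34.2%, 44.7%, 40.7% and 41.4% for Atp1b2, 68.7%, 37.7%, 64.9% and 62.7% for Fxyd1, 3.92%, 9.62%, 3.44% and 10.7% for Fxyd5, and 27.3%, 52.7%, 31.6% and 26.5% for Fxyd6. Atp1b3 was at 12.9% with no division and 11.5% by median protein-coding transcript, and moved by less than its SD by the other lengths, as did Fxyd7 by all 4. Leaving out 1 of 3 replicates cannot move a mean share by as much as its SD, so that comparison could not fail. The share of Fxyd1 was 52.6%, 55.3% and 51.4% without replicates 1, 2 and 3. Genes called as varying between libraries numbered 4958 to 5415 with 1 replicate left out, where the test has fewer libraries, and members called 2 to 4. Depth limits Fxyd7 most, with 4 reads in all.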
